A study of Mus musculus with 11 samples.

Results

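Basement membrane components and their receptors were examined in APC-mutant and wildtype mouse pituitary cells as 34 genes chosen by symbol, out of 56941 genes in the count table. The list holds 10 laminin chains, 6 collagen IV chains, 2 nidogens, 2 heparan sulfate proteoglycans, 4 other collagens, 6 integrin subunits, 2 further receptors, a crosslinking enzyme and an integrin ligand. All 34 symbols matched exactly 1 gene each. Messenger RNA was sequenced from sorted cells, with 5 libraries labelled APC-mutant (replicates 1, 2, 4, 5 and 6) and 6 labelled wildtype (replicates 1 to 6). The labels give pituitary as the tissue of both groups and the genotype as the only difference, and the series' design text calls the wildtype cells stem cells. The titles add the word Lef1 to mutant libraries and Cntrl to wildtype libraries, which the labels do not explain. The age and strain of the mice, the sort gate, what drives the Apc mutation and whether each library is a separate animal are not given in the sources used here. P-values then rest on the spread among these libraries alone, part of which may be technical. The mutant library names all carry the prefix JS, and the wildtype names ROSAJC (replicates 1 to 4) or ROSAE (replicates 5 and 6), so a batch tied to these names cannot be told apart from genotype.

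A basement membrane is a thin sheet of extracellular matrix on which epithelia and blood vessels sit. Laminins, trimers of an α, a β and a γ chain, assemble at the cell surface, and a covalent network of collagen IV trimers, bridged to laminin by nidogens and perlecan, gives the sheet its strength. Cells hold on to it through integrins, dystroglycan and syndecans. In the anterior pituitary, basement membranes surround both the hormone cell cords and the fenestrated capillaries between them. APC is a negative regulator of the Wnt pathway, whose nuclear effectors are the TCF and LEF factors.

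Basement membrane genes took a larger share of the RNA in APC-mutant cells. Values in parentheses after a gene are its log2 fold change, APC-mutant minus wildtype, with its standard error (SE). Together the 34 genes received 0.593% ± 0.0220 of all counts in APC-mutant libraries (SD, n = 5) and 0.133% ± 0.0186 in wildtype libraries (SD, n = 6). The mutant libraries ranged between 0.574% and 0.631%, all above the wildtype range of 0.107% to 0.161%. In edgeR's quasi-likelihood test with Benjamini-Hochberg adjustment, 29 of the 34 genes were called at an adjusted p under 0.05, against 59.2% of the 20622 genes tested. Of these, 28 were higher in APC-mutant cells, where 30.7% of all tested genes were, and 1 was lower, where 28.5% of all tested genes were. A rise of at least 2 log2 units was called for 18 of the 34, against 11.1% of all tested genes. The median log2 fold change of the 34 was 2.57, beside 0.02 over all tested genes. In 24 of the 34 every mutant library exceeded every wildtype library, while ranges did not overlap, in either direction, for 43.0% of all tested genes. The 34 genes were chosen with earlier results of these data known, so these shares are no independent test. All 34 genes passed the filter on low counts, and the exonic overlap with another gene was at most 8.45% of a member's exonic bases, the value of Nid2.

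**Figure D1:**
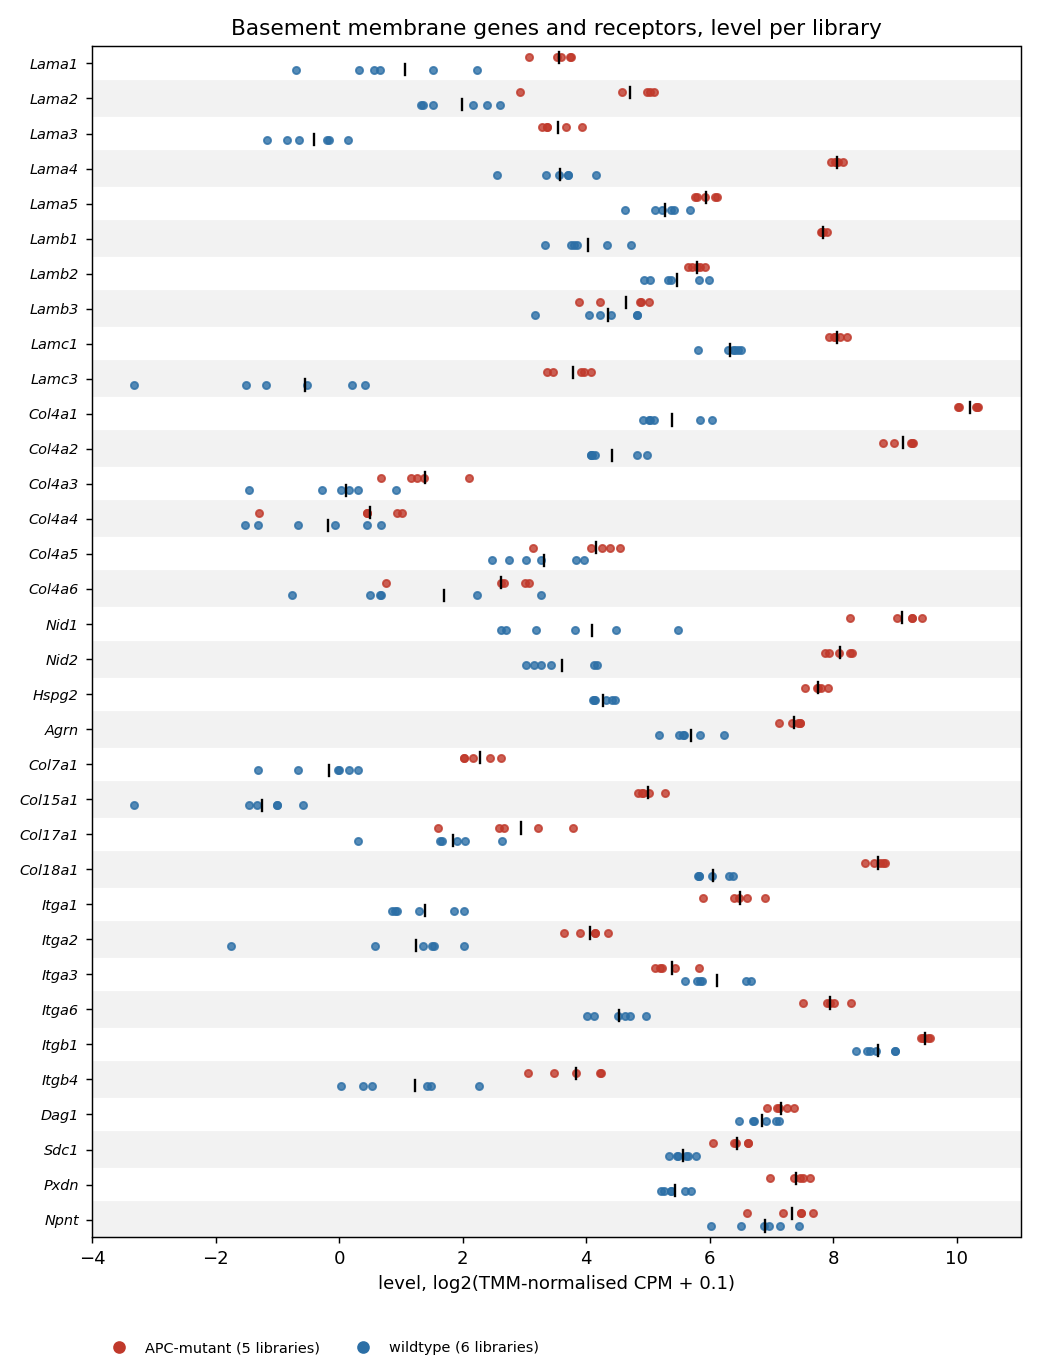
Level of each of the 34 genes in every library, as log2 of CPM plus 0.1, where CPM are counts set to equal library size with TMM factors; red points are the 5 APC-mutant libraries, blue points the 6 wildtype libraries and black ticks the log2 of each group mean plus 0.1. In 24 genes all red points lie right of all blue points, and the ranges of the other 10 overlap.

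The sorted cells were checked against marker lists before the genes were read one by one. The 8 pituitary stem cell markers summed to 780 to 1179 CPM in APC-mutant libraries and 568 to 854 CPM in wildtype libraries, with none at 0 throughout a group, 3 called higher, 3 lower and 2 not called. The sums rest on different genes, mostly S100a6 in APC-mutant libraries (483 to 813 CPM, against 4.68 to 7.92 CPM in wildtype) and Aldh1a2 in wildtype libraries (56.4 to 94.1 CPM in APC-mutant, against 396 to 729.8 CPM in wildtype). Within that list Sox9 was not called (log2 fold change 0.69, adjusted p 0.0543), S100a6 was higher by 6.77 log2 units and Aldh1a2 was lower by a log2 fold change of -2.95. The 12 hormone cell markers, all lower in APC-mutant libraries, summed to 162 to 1460 CPM in APC-mutant libraries and 58887 to 94286 CPM in wildtype libraries. All 16 endothelial markers were called higher in APC-mutant libraries, none was at 0 throughout a group, and they summed to 5344 to 7931 CPM in APC-mutant libraries, against 20.7 to 122 CPM in wildtype libraries. All 11 macrophage and all 6 erythroid markers were higher too, and of 8 simple epithelial markers 2 were higher and 3 lower. Over all tested genes, 30.7% were called higher and 28.5% lower. The stem cell and simple epithelial counts lie near these shares. In bulk RNA, fewer cells of a type and less RNA per cell cannot be told apart. Total counts were 18082332 to 27280761 in APC-mutant libraries and 15740857 to 25414443 in wildtype libraries, so that 3 counts, the limit that a count of 0 allows, stand for 0.11 to 0.191 CPM.

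Collagen IV forms the network of the sheet, and 4 of its 6 chains were called higher, beside 30.7% of all tested genes. Col4a1 and Col4a2 encode the chains of the trimer found in almost every basement membrane, and their genes lie head to head on chromosome 8 (GRCm39, 11248423 to 11362826 for Col4a1 and 11362805 to 11499287 for Col4a2). In the RefSeq table of the older build GRCm38.p6, their annotated starts lie 21 bases apart on opposite strands, with the first annotated bases of both transcripts overlapping, so each window reaches into the other gene. Both promoter windows, 250 bases before to 50 bases after each start, are printed here because these chains changed together. Capitals mark the 78 bases that the windows share, where each is the reverse complement of the other.
Col4a1 (chr8:11312777-11313076, minus strand): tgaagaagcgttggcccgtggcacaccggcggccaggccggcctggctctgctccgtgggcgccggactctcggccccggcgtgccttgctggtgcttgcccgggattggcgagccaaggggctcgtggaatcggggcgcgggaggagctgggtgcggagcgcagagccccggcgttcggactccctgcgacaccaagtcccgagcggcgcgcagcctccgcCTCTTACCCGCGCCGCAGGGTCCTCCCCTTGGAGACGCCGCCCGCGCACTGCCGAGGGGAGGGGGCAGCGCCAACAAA
Col4a2 (chr8:11312555-11312854, plus strand): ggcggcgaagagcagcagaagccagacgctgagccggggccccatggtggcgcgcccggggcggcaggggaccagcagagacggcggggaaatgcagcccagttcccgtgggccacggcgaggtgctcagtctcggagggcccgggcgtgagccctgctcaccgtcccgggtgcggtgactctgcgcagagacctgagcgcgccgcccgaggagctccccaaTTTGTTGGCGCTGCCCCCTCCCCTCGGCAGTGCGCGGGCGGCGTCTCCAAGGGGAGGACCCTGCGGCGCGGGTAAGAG

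Col4a1 reached 1301, 1041, 1048, 1266 and 1285 CPM in APC-mutant replicates 1, 2, 4, 5 and 6, against 30.2, 33.3 and 65.8 CPM (lowest, median and highest) in wildtype libraries. Col4a2 reached 623, 504, 446, 613 and 620.2 CPM in the same mutant libraries, against 16.7, 17.2 and 31.4 CPM in wildtype libraries. No mutant library came near the wildtype range, and in wildtype cells replicates 3 and 4 were the 2 highest for both genes. Log2 fold changes were 4.82 ± 0.23 (SE, adjusted p 8.29e-10) for Col4a1 and 4.73 ± 0.21 (SE, adjusted p 4.58e-10) for Col4a2. The pair made up 28.6% ± 2.68 of the summed CPM of the 34 genes in APC-mutant libraries (SD, n = 5) and 4.74% ± 0.959 in wildtype libraries (SD, n = 6). Scaled for length, as FPKM (CPM per kilobase of exon), Col4a1 stood at 1.88 times Col4a2 in APC-mutant libraries and at 1.71 times in wildtype libraries. This log2 ratio differed by 0.14 in an exact two-sided permutation test over libraries (p 0.0152, adjusted p 0.0193 over 14 ratios), with overlapping ranges. The call was lost without APC-mutant replicate 4, where the difference was 0.11 with an adjusted p of 0.0667.

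The other 4 chains, which build the more restricted networks of glomerulus, lung, smooth muscle and some epithelia, were far scarcer than Col4a1 and Col4a2 in APC-mutant libraries; in wildtype libraries Col4a5 came closer to Col4a2. Col4a5 had 23.3, 20.7, 16.9, 8.74 and 19.0 CPM in the APC-mutant libraries, in the same order of replicates, against 5.45, 8.81 and 15.4 CPM (lowest, median and highest) in wildtype libraries. Mutant replicate 5 lay inside the wildtype range, and wildtype replicates 1 and 5, at 15.4 and 14.1 CPM, stood above the other wildtype libraries. The log2 difference was 0.84 ± 0.30 (SE, adjusted p 0.0245), a call that was lost in 7 of 22 alternative analyses. Each of APC-mutant replicates 1 and 2 and wildtype replicates 4 and 6, when removed, ended it, with log2 fold changes from 0.73 to 0.79. Col4a6, whose product pairs with that of Col4a5, had 7.99, 8.35, 6.08, 1.60 and 6.29 CPM in the APC-mutant libraries, against 0.492, 1.49 and 9.54 CPM in wildtype libraries. The highest wildtype value was that of replicate 5, with replicate 1 next at 4.61 CPM, and the lowest mutant value was that of replicate 5. Col4a6 was not called (log2 fold change 0.94 ± 0.62, SE, adjusted p 0.215). It became a call without wildtype replicate 5 (1.66, adjusted p 0.0176) and in the ROSAJC libraries alone (1.58, adjusted p 0.0421), while against the ROSAE libraries alone its log2 fold change was 0.16 (adjusted p 0.870). Wildtype replicates 1 and 5 were also the highest for the list of 10 glial markers, at 239 and 273 CPM against 71.8 to 109 CPM in the other wildtype libraries and 64.8 to 112 CPM in APC-mutant libraries. None of these markers was at 0 throughout a group, and of the 9 tested 1 was higher, 2 were lower and 6 were not called. Over all tested genes 30.7% were higher and 28.5% lower. The 3 glial markers with the highest mean CPM were Slc1a3, Mbp and Rax. Wildtype replicates 1 and 5 were the highest for Slc1a3 (125 and 142 CPM) and Rax (39.0 and 59.4 CPM). For Mbp they were the 2 lowest wildtype libraries, at 34.4 and 30.4 CPM. The part of glial RNA in the Col4a5 and Col4a6 values was not tested.

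Col4a3 and Col4a4 were the chains with the fewest counts, 27 to 79 and 8 to 38 per APC-mutant library, against 7 to 36 and 5 to 29 per wildtype library. Col4a3 had 1.49 to 4.21 CPM in APC-mutant libraries and 0.265 to 1.80 CPM in wildtype libraries, and was called higher (log2 fold change 1.37 ± 0.41, SE, adjusted p 0.0108). Col4a4 had 0.305 to 1.93 CPM in APC-mutant libraries and 0.246 to 1.503 CPM in wildtype libraries, and was not called (0.75 ± 0.53, SE, adjusted p 0.245). The makeup of the collagen IV messages differed between genotypes. Col4a5 and Col4a6 made up 1.08% ± 0.352 and 0.314% ± 0.149 of the collagen IV FPKM in APC-mutant libraries (SD, n = 5), against 14.03% ± 6.35 and 3.81% ± 4.21 in wildtype libraries (SD, n = 6). Collagen IV messages summed to 248 ± 29.6 FPKM in APC-mutant libraries and 10.9 ± 2.91 FPKM in wildtype libraries (SD). The log2 ratio of Col4a5 to Col4a1 was lower by -4.04 in APC-mutant cells (exact permutation p 0.00216, the smallest that 5 against 6 libraries allow; adjusted p 0.00379). Within the paired genes the ratio was not shown to differ, with a difference of 0.47 for Col4a3 to Col4a4 (adjusted p 0.154) and -0.21 for Col4a5 to Col4a6 (adjusted p 0.535).

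**Figure D2:**
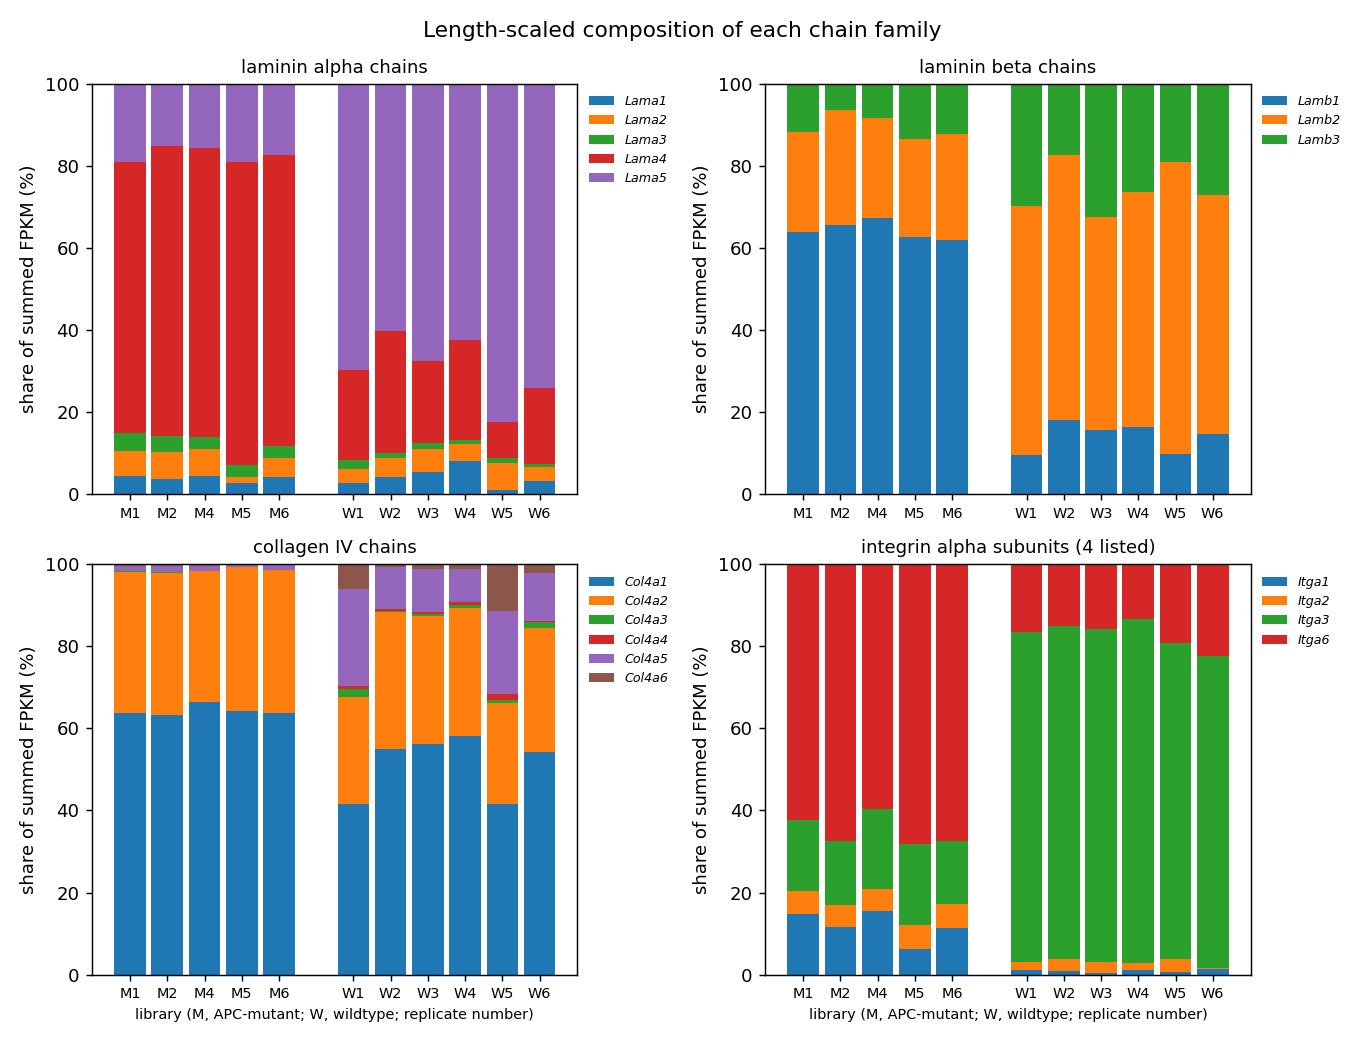
Share of the summed FPKM of each family taken by each chain, in percent, per library (M, APC-mutant; W, wildtype, with replicate numbers); colours are chains. Lama4, Lamb1 and Itga6 took the largest shares of their families in each mutant library, and Lama5, Lamb2 and Itga3 in each wildtype library.

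Laminin α chains carry the cell-binding end of the trimer, and all 5 listed were higher in APC-mutant cells, with no overlap between groups. Among all tested genes 30.7% were called higher, and for 43.0% the ranges did not overlap, in either direction. Lama4, the main α chain of vessel walls beside Lama5, had 248, 268, 262, 285 and 263 CPM in APC-mutant libraries, against 5.80, 12.3 and 17.7 CPM (lowest, median and highest) in wildtype libraries. The log2 difference was 4.49 ± 0.22 (SE, adjusted p 8.88e-10). Lama5, the most widespread α chain of adult epithelia, had 67.9, 54.3, 55.6, 69.3 and 60.8 CPM in APC-mutant libraries, against 24.7, 39.5 and 51.4 CPM in wildtype libraries. The lowest mutant library of Lama5 stood just above the highest wildtype library, and the gene rose by 0.67 ± 0.16 log2 units (SE, adjusted p 0.00216). On the FPKM scale Lama4 made up 70.4% ± 2.86 of the α chain FPKM in APC-mutant libraries (SD, n = 5) and 20.6% ± 6.96 in wildtype libraries (SD, n = 6). Lama5 took 17.3% ± 1.80 in APC-mutant libraries and 69.4% ± 8.05 in wildtype libraries (SD). The ratio of Lama4 to Lama5 was 4.03 in APC-mutant libraries and 0.303 in wildtype libraries, a log2 difference of 3.73 (exact permutation p 0.00216, adjusted p 0.00379). The α chains together summed to 31.2 ± 0.504 FPKM in APC-mutant libraries and 4.88 ± 0.899 FPKM in wildtype libraries (SD). That sum ranged from 30.7 to 31.98 FPKM over the 5 mutant libraries.

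Lama1, typical of early embryonic basement membranes, had 8.28 to 13.4 CPM in APC-mutant libraries and 0.518 to 4.62 CPM in wildtype libraries (2.57 ± 0.42, SE, adjusted p 1.02e-04), and a log2 fold change of 3.61 against the ROSAE libraries alone. Lama2, the chain of muscle and peripheral nerve and also a product of fibroblasts, had 31.4, 34.2, 32.7, 7.48 and 23.8 CPM in APC-mutant libraries, against 2.41, 3.57 and 5.96 CPM in wildtype libraries. APC-mutant replicate 5 was far below the other mutant libraries, though still above every wildtype library. The log2 fold change of Lama2 was 2.75 ± 0.37 (SE, adjusted p 1.74e-05). Lama3, the α chain of the laminin that anchors stratified epithelia, had 15.2, 12.6, 10.2, 10.2 and 9.64 CPM in APC-mutant libraries, against 0.345, 0.659 and 1.002 CPM in wildtype libraries. It rose by 4.15 ± 0.28 log2 units (SE, adjusted p 1.98e-08), and its log2 ratio to Lama5 was higher by 2.19 (adjusted p 0.00379), or by 0.41 with a pseudocount of 1 FPKM (adjusted p 0.0303). Lamb3, a β chain of stratified epithelia, was not called. It had 29.5, 14.7, 18.6, 32.1 and 29.1 CPM in APC-mutant libraries, against 8.90, 19.9 and 28.2 CPM in wildtype libraries, with overlapping groups (log2 fold change 0.30 ± 0.28, SE, adjusted p 0.384). A list of 8 stratified epithelial markers summed to 257 to 476 CPM in APC-mutant libraries, against 33.5 to 49.6 CPM in wildtype libraries. In it 7 genes were tested and all were higher, beside 30.7% of all tested genes. Krt6a and Dsg3 were at 0 in every wildtype library. The part of stratified epithelial RNA in the Lama3 values was not tested.

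Among the β and γ chains, Lamb1 and both listed γ chains were higher. Lamb1, the broadly used β chain, had 237, 229, 226, 225 and 222 CPM in APC-mutant libraries, against 10.02, 14.1 and 26.2 CPM in wildtype libraries. The mutant libraries ranged only from 222 to 237 CPM, and the gene rose by 3.81 ± 0.21 log2 units (SE, adjusted p 2.61e-09). Lamb2, the β chain of synapses, glomeruli and vessels, had 55.2, 60.3, 50.1, 52.6 and 57.1 CPM in APC-mutant libraries, against 30.6, 40.6 and 63.3 CPM in wildtype libraries. All mutant values of Lamb2 fell inside the wildtype range, and it was not called (0.32 ± 0.18, SE, adjusted p 0.129). Without wildtype replicate 5, the highest, its log2 fold change was 0.42 and passed (adjusted p 0.0327). The ratio of Lamb1 to Lamb2 was 2.52 in APC-mutant libraries and 0.236 in wildtype libraries on the FPKM scale, a log2 difference of 3.42 (adjusted p 0.00379). Lamb1 took 64.2% ± 2.19 of β chain FPKM in APC-mutant libraries (SD, n = 5) and 13.9% ± 3.53 in wildtype libraries (SD, n = 6). The log2 ratio of Lamb3 to Lamb1 was lower by -3.47 in APC-mutant libraries (exact permutation, adjusted p 0.00379). Lamc1, the γ chain of most laminins, had 262, 275, 243, 297 and 259 CPM in APC-mutant libraries, against 56.2, 84.2 and 90.9 CPM in wildtype libraries. The groups were far apart, with a log2 fold change of 1.74 ± 0.12 (SE, adjusted p 2.77e-08). Lamc3 was scarce, at 10.2 to 16.7 CPM in APC-mutant libraries and 0 to 1.23 CPM in wildtype libraries, with no count in wildtype replicate 5 (4.57 ± 0.53, SE, adjusted p 4.14e-06).

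Nidogens link the laminin and collagen IV networks, and both rose. Nid1 had 616, 618, 693, 309 and 522 CPM in APC-mutant libraries, against 6.05, 11.5 and 44.7 CPM (lowest, median and highest) in wildtype libraries. Nid2 had 234, 310.0, 244, 316 and 274 CPM in APC-mutant libraries, against 8.07, 10.1 and 18.01 CPM in wildtype libraries. Groups did not overlap for either gene, but APC-mutant replicate 5 was the lowest mutant library for Nid1 and the highest for Nid2. Wildtype replicates 3 and 4 were the highest wildtype libraries for both. Log2 fold changes were 5.02 ± 0.50 (SE, adjusted p 1.06e-06) for Nid1 and 4.52 ± 0.23 (SE, adjusted p 1.38e-09) for Nid2. Against the 2 ROSAE wildtype libraries alone, the lowest for Nid1, its log2 fold change was 6.48. The log2 ratio of Nid1 to Nid2 differed by 0.75 and did not pass (exact permutation, adjusted p 0.101). It passed without APC-mutant replicate 5 (0.996, adjusted p 0.0333) and without wildtype replicate 4 (0.97, adjusted p 0.0370). The same mutant replicate 5 had the lowest sum of 16 mesenchymal markers, 858 CPM against 2409 to 3566 CPM in the other mutant libraries and 158 to 310 CPM in wildtype libraries. Of these markers 15 were higher, beside 30.7% of all tested genes, and none was at 0 throughout a group. It also had the highest endothelial sum, 7931 CPM against 5344 to 6641 CPM in the other mutant libraries. In wildtype cells, replicates 3 and 4 had the highest endothelial sums, 91.9 and 122 CPM, against 20.7 to 68.3 CPM in the other wildtype libraries. The part of endothelial or mesenchymal RNA in the rise of any of the 34 genes was not tested.

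**Figure D3:**
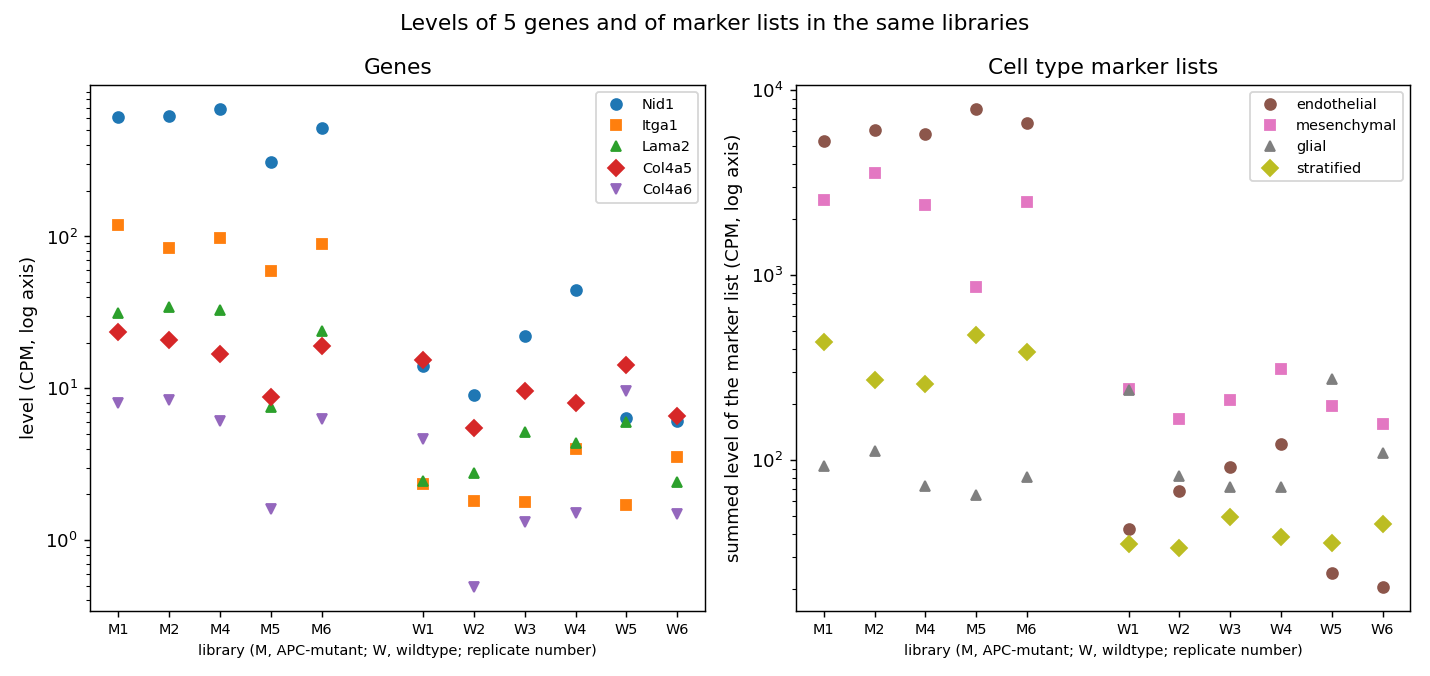
Left, CPM on a log axis of Nid1, Itga1, Lama2, Col4a5 and Col4a6 in each library (M, APC-mutant; W, wildtype, with replicate numbers); right, summed CPM of 4 marker lists in the same libraries. APC-mutant replicate 5 was the lowest mutant library for each of the 5 genes and for the mesenchymal list, at 858 CPM. The 5 genes are a selection: among all 34, that library was the lowest mutant library for 12 and the highest for 12 others.

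Of the heparan sulfate proteoglycans, which bind growth factors in the matrix, Hspg2 encodes perlecan and Agrn encodes agrin. Hspg2 had 223, 212, 215, 186 and 242 CPM in APC-mutant libraries, against 17.2, 18.7 and 22.0 CPM in wildtype libraries. Both groups were tight and far apart, and its log2 fold change of 3.49 ± 0.11 (SE, adjusted p 3.33e-11) had the smallest adjusted p among the 34 genes. Agrn had 177, 162, 139, 171 and 176 CPM in APC-mutant libraries, against 36.3, 47.6 and 74.9 CPM in wildtype libraries (1.68 ± 0.16, SE, adjusted p 5.25e-07). The groups of Agrn did not overlap either, and its ratio to Hspg2 on the FPKM scale was 1.21 in APC-mutant libraries and 3.95 in wildtype libraries. That log2 ratio was lower by -1.71 in APC-mutant cells (exact permutation, adjusted p 0.00379).

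The other collagens of the basement membrane zone were all 4 called higher, beside 30.7% of all tested genes. Col15a1, whose product lies between the sheet and the collagen fibres beneath, had the largest log2 fold change among the 34 genes. It reached 29.99, 30.3, 28.5, 38.6 and 32.3 CPM in APC-mutant libraries, against 0, 0.348 and 0.570 CPM (lowest, median and highest) in wildtype libraries. Those wildtype values rest on 0 to 11 fragments per library, with none in replicate 6, and it rose by 6.63 ± 0.36 log2 units (SE, adjusted p 3.00e-09). Col18a1, the source of endostatin, had 456, 449, 431, 405 and 365 CPM in APC-mutant libraries, against 56.3, 61.1 and 83.0 CPM in wildtype libraries. It was the fifth most abundant of the 34 by length in APC-mutant cells, at 60.0 FPKM against 9.43 FPKM in wildtype cells (log2 fold change 2.67 ± 0.13, SE, adjusted p 1.04e-09). Col7a1, the anchoring fibril collagen of stratified epithelia, had 3.97 to 6.07 CPM in APC-mutant libraries and 0.303 to 1.14 CPM in wildtype libraries (2.57 ± 0.32, SE, adjusted p 9.09e-06). Col17a1, a transmembrane collagen of hemidesmosomes, had 13.7, 6.26, 2.93, 5.91 and 9.23 CPM in APC-mutant libraries, against 1.13, 3.37 and 6.11 CPM in wildtype libraries. Its groups overlapped, and its call (1.12 ± 0.40, SE, adjusted p 0.0279) was lost in 7 of 22 alternative analyses. Among them were the removals of APC-mutant replicates 1 and 6 and of wildtype replicates 4 and 5, with log2 fold changes from 0.80 to 1.08. Against the ROSAE libraries alone the value was 1.89.

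**Figure D4:**
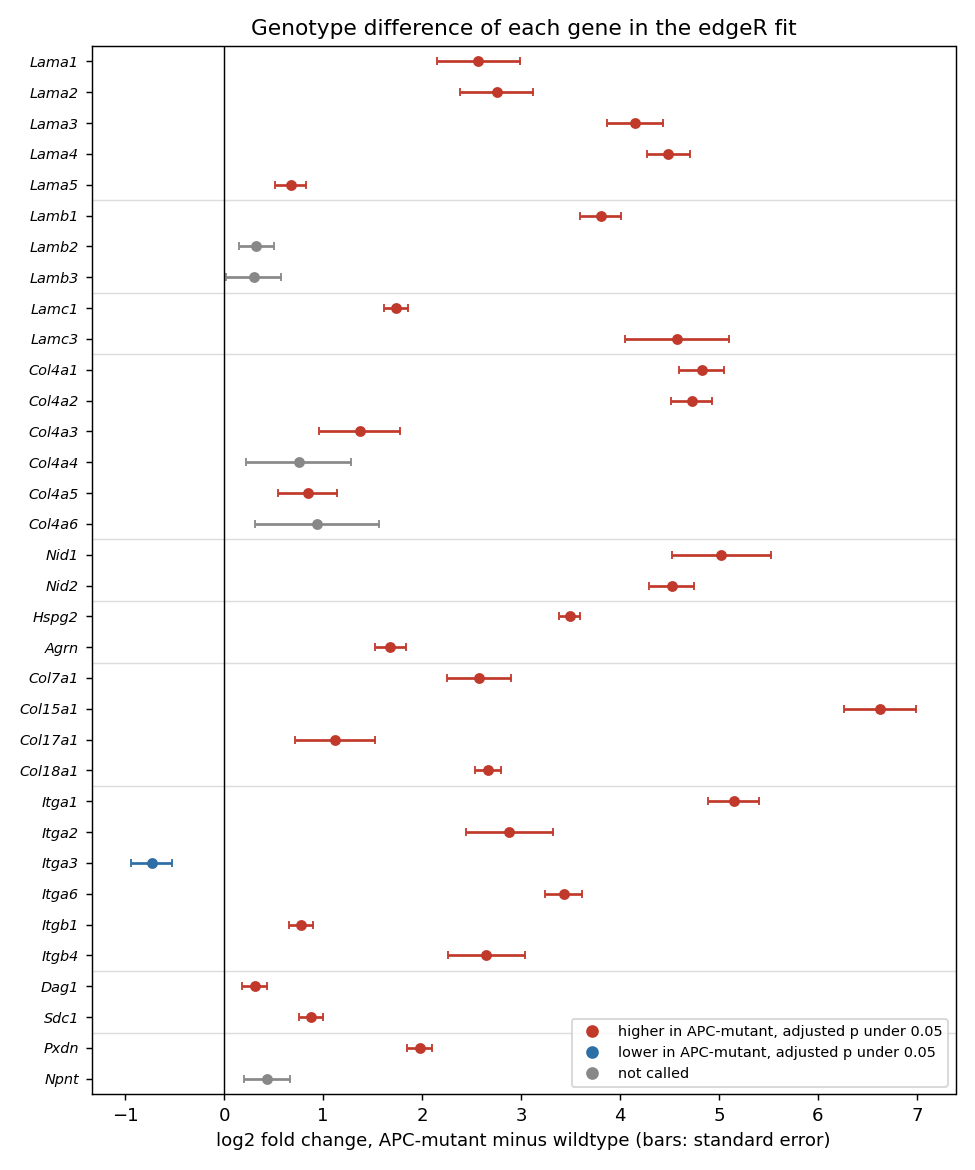
Log2 fold change of each gene, APC-mutant minus wildtype, with its standard error, in role order from laminins at the top to enzyme and ligand at the bottom. Red genes were called higher, Itga3 in blue was called lower at -0.73, and the 5 grey genes were not called.

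Integrin subunits moved in both directions, with 5 of the 6 called higher and 1 called lower. Over all tested genes these shares were 30.7% and 28.5%. Itga6, the laminin-binding subunit α6, had 247, 237, 182, 313 and 259 CPM in APC-mutant libraries, against 16.0, 23.7 and 31.2 CPM in wildtype libraries (3.43 ± 0.19, SE, adjusted p 2.56e-09). Itga3, the laminin-binding subunit α3 of epithelia, had 43.5, 34.4, 37.5, 56.3 and 36.6 CPM in APC-mutant libraries, against 48.4, 57.7 and 101 CPM in wildtype libraries. Only APC-mutant replicate 5 reached into the wildtype range of Itga3. It was the only one of the 34 genes called lower (-0.73 ± 0.21, SE, adjusted p 0.00778), and against the 2 ROSAE wildtype libraries alone the value was -0.42 and did not pass (adjusted p 0.0869). Against the 4 ROSAJC libraries alone the call held. On the FPKM scale Itga3 stood at 0.272 times Itga6 in APC-mutant libraries and 4.60 times in wildtype libraries. The log2 difference was -4.08 (exact permutation p 0.00216, adjusted p 0.00379). Among the 4 listed α subunits Itga6 took 65.0% ± 3.88 of FPKM in APC-mutant libraries (SD, n = 5) and 17.1% ± 3.22 in wildtype libraries (SD, n = 6). Itga3 took 17.5% ± 2.11 in APC-mutant libraries and 79.9% ± 2.92 in wildtype libraries (SD).

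The collagen-binding subunits Itga1 and Itga2 both rose. Itga1 had 119, 83.5, 97.3, 59.2 and 88.7 CPM in APC-mutant libraries, against 1.71, 2.09 and 3.96 CPM in wildtype libraries. Every mutant library was far above the wildtype range, lowest in replicate 5 (log2 fold change 5.15 ± 0.26, SE, adjusted p 1.38e-09). Itga2 had 12.4 to 20.4 CPM in APC-mutant libraries and 0.197 to 3.96 CPM in wildtype libraries (2.88 ± 0.44, SE, adjusted p 5.98e-05). Itgb1, the common β partner of all 4 α subunits, had 682, 757, 707, 744 and 702 CPM in APC-mutant libraries, against 329, 399.9 and 511 CPM in wildtype libraries. By length it was the most abundant of the 34 genes in both groups, at 176 FPKM in APC-mutant cells and 103 FPKM in wildtype cells, with a log2 fold change of 0.77 ± 0.12 (SE, adjusted p 8.40e-05). Itgb4, the hemidesmosome subunit that pairs with α6, had 8.24 to 18.8 CPM in APC-mutant libraries and 0.924 to 4.73 CPM in wildtype libraries (2.65 ± 0.39, SE, adjusted p 4.08e-05). The groups did not overlap in CPM, although the ratio of Itgb4 to Itgb1 did overlap, at a log2 difference of 1.61 (exact permutation, adjusted p 0.00909). With a pseudocount of 1 FPKM that ratio difference was 0.39 and did not pass (adjusted p 0.112), and against the ROSAE libraries alone the log2 fold change of Itgb4 was 1.93.

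Of the remaining receptors, Dag1 encodes dystroglycan and Sdc1 encodes a syndecan of epithelial cells. Dag1 had 165, 152, 136, 121 and 139 CPM in APC-mutant libraries, against 89.0, 113 and 138 CPM in wildtype libraries. The groups overlapped, the log2 value was 0.31 ± 0.13 (SE, adjusted p 0.0471), and the call was lost in 18 of 22 alternative analyses, with values from 0.12 to 0.36. Among single libraries only the removal of APC-mutant replicate 5 or of wildtype replicate 3 or 4 kept the call. Sdc1 had 97.9, 66.5, 83.9, 98.6 and 85.9 CPM in APC-mutant libraries, against 40.2, 46.9 and 54.5 CPM in wildtype libraries, with no overlap (0.88 ± 0.12, SE, adjusted p 1.99e-05). Pxdn, the peroxidase that crosslinks collagen IV, had 182, 198, 177, 126 and 164 CPM in APC-mutant libraries, against 37.1, 41.5 and 51.5 CPM in wildtype libraries. It was lowest in mutant replicate 5 and still far above wildtype there (1.97 ± 0.13, SE, adjusted p 1.49e-08). Npnt, nephronectin, a ligand of integrin α8, had 177, 179, 96.9, 203 and 146 CPM in APC-mutant libraries, against 64.8, 121 and 175 CPM in wildtype libraries. Its groups overlapped and it was not called (0.43 ± 0.23, SE, adjusted p 0.126). It became a call without APC-mutant replicate 4 (0.57, adjusted p 0.0412) or wildtype replicate 1 (0.57, adjusted p 0.0450), each of which was the extreme of its group. By length Npnt was the eighth of the 34 in APC-mutant cells, at 31.9 FPKM, and the second in wildtype cells, at 23.7 FPKM.

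**Figure D5:**
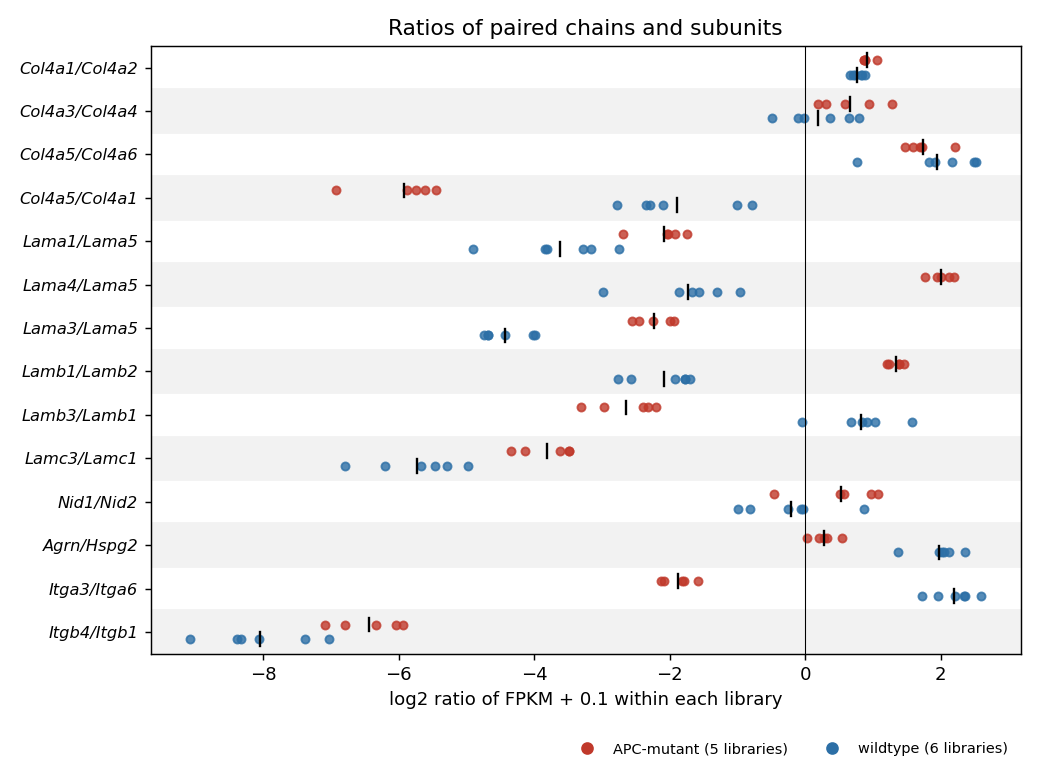
Log2 ratio of FPKM plus 0.1 for 14 pairs of chains or subunits within each library; red points are the 5 APC-mutant libraries, blue points the 6 wildtype libraries and black ticks the group means. The 9 pairs whose red and blue points do not overlap include Lama4/Lama5, Lamb1/Lamb2 and Itga3/Itga6, and the 5 pairs that overlap include Col4a1/Col4a2 and Nid1/Nid2.

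The promoter windows of the genes in the RefSeq table were searched for short motifs; it holds windows for 25 of the 34 genes. The TCF/LEF motif was written as CTTTGAA or CTTTGAT on either strand, the AP-1 motif as TGACTCA or TGAGTCA on either strand, and the SP motif as GGGCGG on either strand. No window of these genes held more than 1 kind of motif. The TCF/LEF letters stood in the windows of 2 of the 25 genes, where 9.88% of 27025 genes have them. That share is near the one over all genes. The 2 genes were Col15a1 and Itga1, whose windows are printed here because they hold the motif. Their log2 fold changes were also the 2 largest of the 34, and a link between motif and level was not tested. Capitals mark the motif, 131 bases before the start of Col15a1, on the reverse strand, and 113 bases before the start of Itga1.
Col15a1 (chr4:47207762-47208061, GRCm38.p6, plus strand): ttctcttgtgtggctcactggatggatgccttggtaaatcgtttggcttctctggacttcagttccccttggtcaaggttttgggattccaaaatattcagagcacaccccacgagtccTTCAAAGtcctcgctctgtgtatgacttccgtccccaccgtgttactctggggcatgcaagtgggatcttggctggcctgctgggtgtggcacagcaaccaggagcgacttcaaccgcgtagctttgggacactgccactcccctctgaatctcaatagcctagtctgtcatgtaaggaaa
Itga1 (chr13:115101915-115102214, GRCm38.p6, minus strand): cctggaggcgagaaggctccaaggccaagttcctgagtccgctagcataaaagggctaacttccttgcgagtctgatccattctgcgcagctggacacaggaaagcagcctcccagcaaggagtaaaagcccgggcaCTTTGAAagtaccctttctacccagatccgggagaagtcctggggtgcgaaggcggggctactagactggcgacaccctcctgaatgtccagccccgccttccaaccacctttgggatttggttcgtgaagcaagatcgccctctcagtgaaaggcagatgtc
The AP-1 letters stood in 0 of 25 genes, where 5.95% of all genes have them. The SP letters stood in 19 of 25, among them Col4a1, Col4a2, Hspg2, Lamb1 and Nid1, where 38.2% of all genes have them. The median GC content of the 31 windows was 63.3%, against 52.7% over all 32851 windows. A match describes these letters and shows no binding.

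Other genes of the same structures were read from lists, whose counts stand beside 30.7% higher and 28.5% lower over all tested genes. These lists, and those for making and removing the sheet, were also chosen with earlier results of these data known. Of 27 further matrix genes 26 were tested, with 14 higher, 4 lower and a median log2 fold change of 1.12. Vwa1, a matrix protein that binds perlecan, had 139 to 214 CPM in APC-mutant libraries and 1.55 to 3.72 CPM in wildtype libraries (5.99 ± 0.23, SE, adjusted p 1.34e-10). Fras1, which anchors embryonic epithelia, was on the other side, with 10.6 to 15.2 CPM in APC-mutant libraries and 25.3 to 47.0 CPM in wildtype libraries (-1.44 ± 0.17, SE, adjusted p 4.30e-06). Tinagl1 (5.86) and Smoc1 (-2.48) were the other examples that the naming rule gave. Outside that rule, the Fras1-related genes Frem1 (2.44) and Frem2 (2.47) of the same list were called higher, opposite to Fras1. Of 26 other adhesion receptors 18 were higher and 4 lower, beside the same 30.7% and 28.5%, with a median of 1.76. Itga5, the fibronectin-binding subunit α5, rose by 4.36 ± 0.18 (SE, adjusted p 2.94e-10), and Mcam, an endothelial and pericyte adhesion molecule, by 3.96. Ddr1, a collagen-binding receptor kinase of epithelia, had 45.0 to 63.6 CPM in APC-mutant libraries and 105 to 154 CPM in wildtype libraries (-1.21 ± 0.13, SE, adjusted p 1.49e-06), and the glypican Gpc4 had a value of -1.43. Of 21 genes that link integrins and dystroglycan to the cytoskeleton 17 were higher and 1 lower, beside the same shares of all tested genes, with a median of 1.09. Among those called higher, Ilk shares 89.7% of its exonic bases with other genes and Vcl 25.5%. The Ilk call therefore cannot be assigned to Ilk alone. Tln2, a talin, rose by 2.35, Lims1 by 1.91, and the dystrobrevin Dtna had -1.51.

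The genes that make and remove the sheet were read as separate lists. Of 24 genes for collagen and laminin processing and for the glycosylation of dystroglycan 23 were tested, with 8 higher and 7 lower, shares near the 30.7% and 28.5% of all tested genes, and a median log2 fold change of 0.14. Serpinh1, the collagen chaperone of the endoplasmic reticulum, had 739 to 843 CPM in APC-mutant libraries and 55.9 to 138 CPM in wildtype libraries (3.18 ± 0.19, SE, adjusted p 7.27e-09). P4ha2, a prolyl hydroxylase subunit, had 24.9 to 32.8 CPM in APC-mutant libraries and 74.6 to 144 CPM in wildtype libraries (-1.92 ± 0.18, SE, adjusted p 5.59e-07). Plod1, a lysyl hydroxylase, rose by 1.85, and Mia3, which loads collagen into transport vesicles, had -1.21. Of 19 proteases and inhibitors that act on the matrix 17 were higher and 1 lower, beside 30.7% and 28.5% of all tested genes, with a median of 2.18. Mmp14, a membrane protease, had 358 to 588 CPM in APC-mutant libraries and 95.1 to 124 CPM in wildtype libraries (2.18 ± 0.13, SE, adjusted p 7.42e-09). Mmp2, the gelatinase that it activates, rose by 2.96, with 25.5% of its exonic bases shared with another gene. Timp4, an inhibitor of such proteases, had a log2 fold change of -1.62 (SE 0.22, adjusted p 2.23e-05). The list medians stand beside 0.02 over all tested genes.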

How the data were processed

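RNA of sorted pituitary cells, amplified with a SMARTer kit and selected for poly(A) per the labels' protocols, was sequenced as read pairs. The authors deposited raw counts of fragments per gene, made with featureCounts 2.0.1 per the file headers, on GENCODE release M33 of GRCm39. Counting ignored strand, gave a pair that overlapped several genes to each of them and left out multi-mapping pairs, per the file headers. Reads of a gene and of an antisense partner therefore cannot be told apart. The submitters' processing notes name STAR 2.7.9a, Trim Galore 0.6.5, DESeq2 and featureCounts, with no settings given in the sources used here. The header names 30 alignment files, of which the 11 with a column are used. Symbols were matched by identifier for 51948 of 56941 genes, and for 211 of the 212 genes of the companion and marker lists.

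Counts were filtered with filterByExpr, scaled with TMM factors and tested for genotype with the quasi-likelihood F test of edgeR 4.0.16 in R 4.3.3, fitted to all 20622 genes that passed, with Benjamini-Hochberg adjustment over them and a threshold of 0.05. Log2 fold changes subtract wildtype from APC-mutant, with standard errors obtained as their size over the root of F. Levels are CPM after TMM. FPKM is CPM per kilobase of the deposited exonic length. Ratios within a library are log2 of FPKM plus 0.1, tested by exact two-sided permutation over libraries and adjusted over 14 ratios. A ratio printed for a group is the mean of these log2 ratios converted back, which can differ from a ratio of mean FPKM. The procedures were tested on simulated data. Pairs of libraries of 1 genotype differed beyond sampling noise, with a chi-square per degree of freedom of 14.2 to 94.4. The limit for a count of 0 is 3 counts and covers counting error only, since amplified fragments are not independent molecules. Companion genes are named by a rule. It takes, for each list, up to 2 called genes with the smallest p in each direction. For each marker list it takes the 3 genes with the highest mean CPM, of which only those of the stem cell and glial lists are named. Krt6a, Dsg3, Ilk, Vcl, Frem1 and Frem2 are named outside this rule. Promoter windows come from the RefSeq table on GRCm38.p6, and no coordinates were converted. Alternatives were RLE and upper-quartile scaling, DESeq2 1.42.0, limma 3.58.1 with voom, other filters, each group of wildtype names alone, a replicate block and each library left out. The members and lists were chosen with earlier results of these data known.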

Additional observations from a re-analysis of the deposited data

Results flagged for a closer look

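Of 68 groups of libraries examined, 1 for each gene and genotype, 5 held a library set apart from the rest of its group by a gap that is large for the whole range of the group. Chance alone sets about 1 in 20 groups apart in this way. APC-mutant replicate 5 accounted for 3 of them. Lama2 had 7.48 CPM there, against 23.8 to 34.2 CPM in the other mutant libraries. Col4a4 had 0.305 CPM there, against 1.27 to 1.93 CPM, and Col4a6 had 1.60 CPM, against 6.08 to 8.35 CPM. In wildtype cells, Lamc1 had 56.2 CPM in replicate 2, against 78.2 to 90.9 CPM in the other wildtype libraries. Col15a1 had 0 CPM in wildtype replicate 6, where 3 counts would be 0.153 CPM, against 0.265 to 0.570 CPM in the others.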

How the results depend on the processing

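Over 22 alternative analyses for each of the 34 genes, 706 log2 fold changes kept their direction and their side of the threshold, 33 lost a call, 8 gained one and 1 changed sign. The sign changed for Lamb3, never called, at -0.060 without APC-mutant replicate 5 and wildtype replicates 2 and 5, a setting chosen after seeing the data. With the ROSAE wildtype libraries alone, 0 of the 34 genes were called lower, since Itga3 had an adjusted p of 0.0869. Leaving out single libraries gave 25 to 28 genes higher and 1 lower. Same-numbered libraries of the 2 genotypes did not deviate together (r from -0.151 to 0.0492), so the replicate numbers were not taken as pairs. With a replicate block in edgeR 10577 genes were called, 27 of them among the 34, and with the replicate block 0 of 14 ratios passed, because 5 pairs allow no p under 0.0625. At a pseudocount of 1 FPKM 8 ratios passed instead of 11. The log2 ratio difference of Col4a5 to Col4a6 turned from -0.21 to 0.20. That of Lamc3 to Lamc1 was 1.93 in the main permutation test (adjusted p 0.00379). It turned to -0.091 and did not pass (adjusted p 0.593). That of Lama1 to Lama5 fell from 1.54 (adjusted p 0.00673) to 0.32 and did not pass either (adjusted p 0.101). Upper-quartile scaling moved the median of all genes to -0.17 and the calls to 5163 higher and 7481 lower, from 6341 and 5877, with 25 of the 34 higher. Depth limits scarce genes such as Col4a4, with 5 to 38 counts per library.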

Other observations

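Single libraries did not sit at the same end for every gene. APC-mutant replicate 5 was the lowest mutant library for 12 of the 34 genes and the highest for 12 others, and replicate 1 was the highest for 13. Wildtype replicate 2 was the lowest wildtype library for 12 genes and the highest for none. Wildtype replicates 4 and 5 were each the highest for 11 genes, replicate 4 among others for Col4a1, Col4a2 and Nid1, and replicate 5 for Lama2, Lamc1 and Agrn. Summed over the 34 genes, the level per length was 895 ± 34.7 FPKM in APC-mutant libraries (SD, n = 5) and 236 ± 37.7 FPKM in wildtype libraries (SD, n = 6).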
